A study of Mus musculus with 8 samples.

Results

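Interferon gamma is the cytokine by which T and natural killer (NK) cells activate macrophages. It binds a receptor of the chains Ifngr1 and Ifngr2, which signals through the kinases Jak1 and Jak2 to GAS elements in target promoters. Type I interferons act mainly on ISRE elements, and many genes, among them most of those below, answer to both cytokines. Interferon gamma is also known to alter blood formation and macrophage function in the marrow, and macrophages form the centre of the erythroblastic island, the unit in which red cell precursors mature.

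The genes described here are interferon gamma itself and a list of 8 genes known as its targets, taken by name, 9 of the 19669 genes in the table. The targets are the chemokines Cxcl9 and Cxcl10, which attract cells that carry the receptor Cxcr3. The second group holds the guanylate-binding proteins Gbp2, Gbp3, Gbp5 and Gbp7, large GTPases that act on vacuoles holding microbes. The third group holds Irgm1 and Igtp (also called Irgm3), immunity-related GTPases of the type that regulates the other members of that family. All 9 genes had UMIs (molecules counted once through their unique molecular identifier), from 1250 for Gbp5 to 12254 for Cxcl10.

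Erythroblastic islands were enriched on BSA gradients from male Sle1.Yaa mice, a strain prone to lupus. Their cells were freed with EDTA and gentle mechanical handling, and 10x v3.1 libraries were made from them. Per the labels there were 2 marrow and 2 spleen libraries from mice with a human TLR8 transgene, labelled anemic, and 3 marrow libraries and 1 spleen library from controls without it, labelled non-anemic. All 8 shared the Sle1.Yaa background, so no group stands for a healthy mouse. Ages and the promoter of the transgene are not given in the labels. The title of 1 transgenic spleen library joins the codes of both transgenic marrow libraries named alike, and the labels do not say whether animals were pooled in it. The human transgene was not analysed here.

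The table names its 24942 cells by barcode alone, so no cell could be placed in a group, and transgenic and control mice, or marrow and spleen, could not be compared. Every value below describes the pooled cells. The barcodes ran in 8 alphabetically sorted stretches, called runs here and numbered in file order, with 447 to 6787 cells and 6195876 to 48442321 UMIs each. They served as unnamed libraries, to show how far a value varied. The median cell had 7554 UMIs. In all, 1031 cells carried a barcode found in more than 1 run, among them 11 of the 1056 T and NK cell-like cells and 15 of the 437 macrophage-like cells. Without them the share of Ifng UMIs in T and NK cell-like cells was 97.34%, and no count in the comparisons below changed. Clustering without the genes of interest gave 34 clusters, of which 28 took a class name from marker genes. The other 6, with 23.9% of the cells, are called by their leading genes.

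All 9 genes lie on chromosomes 3, 5, 10 and 11 of the mouse build GRCm38 (GENCODE M21). Gbp5 (chr3:142493978-142522344), Gbp7 (chr3:142530342-142550149), Gbp3 (chr3:142560026-142573209) and Gbp2 (chr3:142620602-142638008) follow each other on the plus strand. Cxcl9 (chr5:92321347-92328079) and Cxcl10 (chr5:92346638-92348889) are neighbours on the minus strand. Ifng lies at chr10:118441046-118445892 and Irgm1 at chr11:48861968-48871683. Exons of Igtp (chr11:58199556-58207591) overlap exons of Irgm2 on the same strand, so reads of these genes are not fully separable. How the authors' counting placed reads that match several Gbp paralogs is not known here.

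Most of the target promoters hold the letters of an ISRE, and few those of a GAS element. RefSeq windows (GRCm38.p6) of the 250 bases before a transcript start were found for all 9 genes. They were searched on both strands for TTTC, any 2 bases and TTTC again, the repeat of an ISRE, and for TTCNNNGAA, the GAS palindrome. The ISRE-like repeat stood in the window of 7 of the 8 targets, Cxcl9 being the exception, and in 2.98% of all 32851 mouse windows of that length. The GAS palindrome stood in the windows of 4 genes, Gbp5, Gbp7, Igtp and Ifng, and in 7.02% of all windows. A match describes letters only, and absence of one says nothing of binding. One ISRE-like site of each of the 7 genes follows, 5′ to 3′ on the strand of the gene, with the repeat in capitals and flanking bases on each side. They are shown because this is the element most of the targets have in common.

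Gbp7 (chr3:142530277-142530298): gtgcagTTTCAGTTTCagttct
Gbp3 (chr3:142559993-142560014): acacagTTTCAGTTTCtatttc
Gbp2 (chr3:142620598-142620619): ttttagTTTCACTTTCactgtc
Gbp5 (chr3:142496763-142496784): gtgtagTTTCAATTTCagttta
Igtp (chr11:58199516-58199537): ggaactGAAACTGAAAgctgtt
Irgm1 (chr11:48871429-48871450): gaaataGAAACCGAAActgatt
Cxcl10 (chr5:92349087-92349108): gctttgGAAAGTGAAActtacc

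In Gbp3 and Irgm1 a second, overlapping repeat stands beside the one shown. The sites start 24 to 59 bases before the transcript start in Gbp2, Gbp3, Gbp7, Igtp and Irgm1, 165 in Gbp5 and 213 in Cxcl10. RefSeq starts Gbp5 and Irgm1 inside the GENCODE genes, so their sites have coordinates within them. The same is true of most of the Gbp2 site. The whole windows of 4 genes follow, with matches in capitals, as examples of the 4 kinds found: Igtp with both motifs, Cxcl10 with the ISRE-like repeat alone, Cxcl9 with neither and Ifng with a GAS palindrome alone.

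Igtp (chr11:58199306-58199555, plus strand): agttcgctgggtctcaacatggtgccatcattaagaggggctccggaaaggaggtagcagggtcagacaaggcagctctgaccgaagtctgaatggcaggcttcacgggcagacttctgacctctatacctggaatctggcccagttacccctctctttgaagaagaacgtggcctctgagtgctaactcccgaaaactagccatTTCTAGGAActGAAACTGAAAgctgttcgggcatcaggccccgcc
Cxcl10 (chr5:92348890-92349139, minus strand): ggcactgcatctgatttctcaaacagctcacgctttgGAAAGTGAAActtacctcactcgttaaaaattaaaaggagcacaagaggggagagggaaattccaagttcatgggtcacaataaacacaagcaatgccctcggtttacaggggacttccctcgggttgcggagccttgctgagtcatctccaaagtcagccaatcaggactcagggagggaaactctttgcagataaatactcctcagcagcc
Cxcl9 (chr5:92328080-92328329, minus strand): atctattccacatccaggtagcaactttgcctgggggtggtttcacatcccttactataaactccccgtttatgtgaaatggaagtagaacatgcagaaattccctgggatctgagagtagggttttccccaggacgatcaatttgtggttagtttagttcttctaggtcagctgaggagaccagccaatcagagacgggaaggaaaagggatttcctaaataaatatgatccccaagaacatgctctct
Ifng (chr10:118440796-118441045, plus strand): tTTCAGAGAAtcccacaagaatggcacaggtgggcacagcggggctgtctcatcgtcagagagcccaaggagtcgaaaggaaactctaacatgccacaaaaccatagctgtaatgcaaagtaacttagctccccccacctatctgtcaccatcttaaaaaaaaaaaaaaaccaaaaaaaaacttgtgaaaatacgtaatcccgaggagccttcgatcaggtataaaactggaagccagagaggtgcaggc

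Ifng RNA was held almost wholly by T and NK cell-like cells. Of 1886 Ifng UMIs, 1836 (97.35%, exact Clopper-Pearson 95% interval 96.5 to 98.0%) were in these 1056 cells, which made up 4.24% of all cells. Their level was 315.5 CPM (counts per 1e6 UMIs of the cells), with an exact Poisson 95% interval of 301 to 330. Intervals here cover counting error only, and cells are not replicates of a condition. The next class, plasmacytoid dendritic-like cells, had 2.79 CPM from 13 UMIs. Ifng UMIs were seen in 430 T and NK cell-like cells (40.7%), against 3 of 4175 late erythroid-like cells (0.0719%), a class that should lack the gene. The median depth was 4780 UMIs in T and NK cell-like cells and 7828 outside them. Thinned to 2000 UMIs per cell, 278 of 874 T and NK cell-like cells still had one (31.8%), against 1 of 3848 late erythroid-like cells.

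The class met its markers: 71.4% of its cells had a UMI of Cd3g, a chain of the T cell receptor complex, and 10.6% had one of Ncr1, an NK receptor. Outside it, Ifng appeared in 37 of 23869 cells (0.155%), of which 3 also had a UMI of a Cd3 chain or an NK receptor gene. Splitting the class by UMIs put 86.55% of its Ifng in 804 cells with a Cd3 UMI (325 CPM). A further 12.96% was in 117 cells with an NK receptor UMI and no Cd3 UMI (406.5 CPM, 356 to 461.5). The 135 cells with neither had 25.6 CPM from 9 UMIs. The level was thus higher in the NK gate, and the T gate, with more cells, held most of the UMIs.

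Among 14 sub-clusters Ifng was uneven. The highest was a cluster with Tnfsf8, Cd4 and Il21 among its leading genes, with 740 CPM (679 to 805) in 139 cells and 29.7% of the Ifng of the class. Il21 encodes a cytokine by which helper T cells act on B cells. Neither Cd4 nor Il21 marked the Ifng level: a sub-cluster of 25 cells led by Sostdc1 and Ascl2 had more of both (512 and 149.5 CPM, against 320 and 59.7) and 157 CPM of Ifng. Next came cells led by Cd8a and the granzyme Gzmk, with 566 CPM (518 to 618) in 160 cells, whose interval did not overlap the first. The NK sub-cluster led by Ncr1 followed with 473 CPM (415 to 536) in 73 cells, and a cluster led by Mmp9 and Itga1 with 467 CPM (385 to 560.0) in 43 cells. The intervals of the Cd8a, Ncr1 and Itga1 clusters overlapped.

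Lower levels were found in cycling cells led by Mki67 (258 CPM, 49 cells) and in a cluster led by the NK receptors Klra6 and Klra7 (223 CPM, 65 cells). Another sub-cluster with the NK receptors Ncr1 (281 CPM) and Klrb1c (324 CPM), of 50 cells led by Krt83, had 118.5 CPM of Ifng (71.3 to 185). Of these cells, 86.0% were in run 6. Cells led by Foxp3, the factor of regulatory T cells, had 48.9 CPM (147 cells), and cells led by Ccr7 and Lef1, genes of naive T cells, had 70.8 (70 cells). Il17a and Trdc cells, of the gamma-delta type that makes interleukin 17, had 3 Ifng UMIs (12.3 CPM, 42 cells). No Ifng UMI was found in 2 clusters with Il13, the cytokine of type 2 lymphoid cells. The upper ends of their exact Poisson 95% intervals were 32.65 CPM in 62 cells and 23.6 CPM in 32 cells. A sub-cluster of 99 cells, 98.0% of them in run 6, was led by the platelet genes Pf4 and Ppbp and had 128 CPM. It held 1.74% of the Ifng of the class, and the part of platelet RNA in it was not tested.

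**Figure D1:**
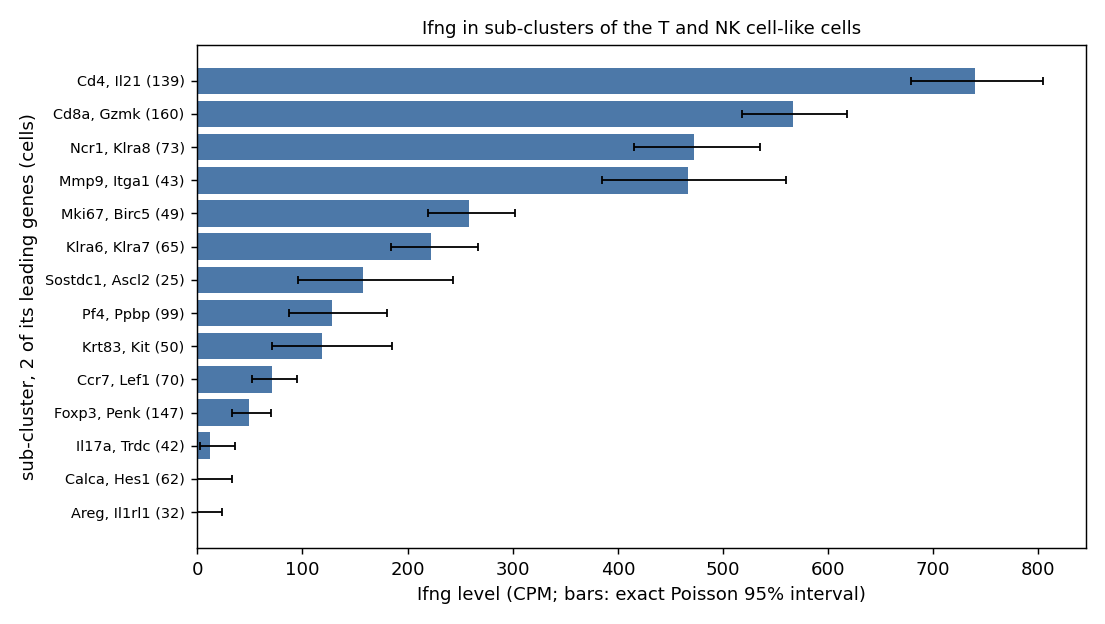
Ifng level in CPM (x axis) in each of the 14 sub-clusters of T and NK cell-like cells (y axis, named by 2 leading genes, with cell numbers). Bars are levels over all cells of a sub-cluster and whiskers exact Poisson 95% intervals. The Cd4 and Il21 cluster stands at 740 CPM, and the Calca and Areg clusters are at 0.

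Between runs, Ifng in T and NK cell-like cells was 368, 511, 270.2, 313, 405, 104, 306 and 49.5 CPM in runs 1 to 8, so runs 6 and 8 lay below all others. The share of a run's Ifng that these cells held varied far less, from 95.4 to 100%. In run 6 the class had a median of 2048 UMIs, the lowest of the runs, and 12.3% of its cells with an Ifng UMI. In run 8 it had the highest median, 9238 UMIs, and 17.7% of its cells with one, against 47.4 to 63.75% in runs 1 to 5 and 7. The sub-clusters were not spread evenly over runs. Within the Cd8a and Gzmk sub-cluster, Ifng lay between 514 and 639 CPM in the 4 runs with at least 10 of its cells. Within the Cd4 and Il21 sub-cluster it lay between 626 and 854 CPM in 3 runs. The low sub-clusters varied more, from 6.18 to 278 CPM over 6 runs in Foxp3-led cells and from 23.2 to 174 over 3 runs in Ccr7-led cells. The 106 T and NK cell-like cells with most Ifng held 59.1% of it, and the highest cell had 37 UMIs.

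The targets were spread over more classes than Ifng. Levels are compared below within a gene and not between genes, since transcripts are captured unequally.

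**Figure D2:**
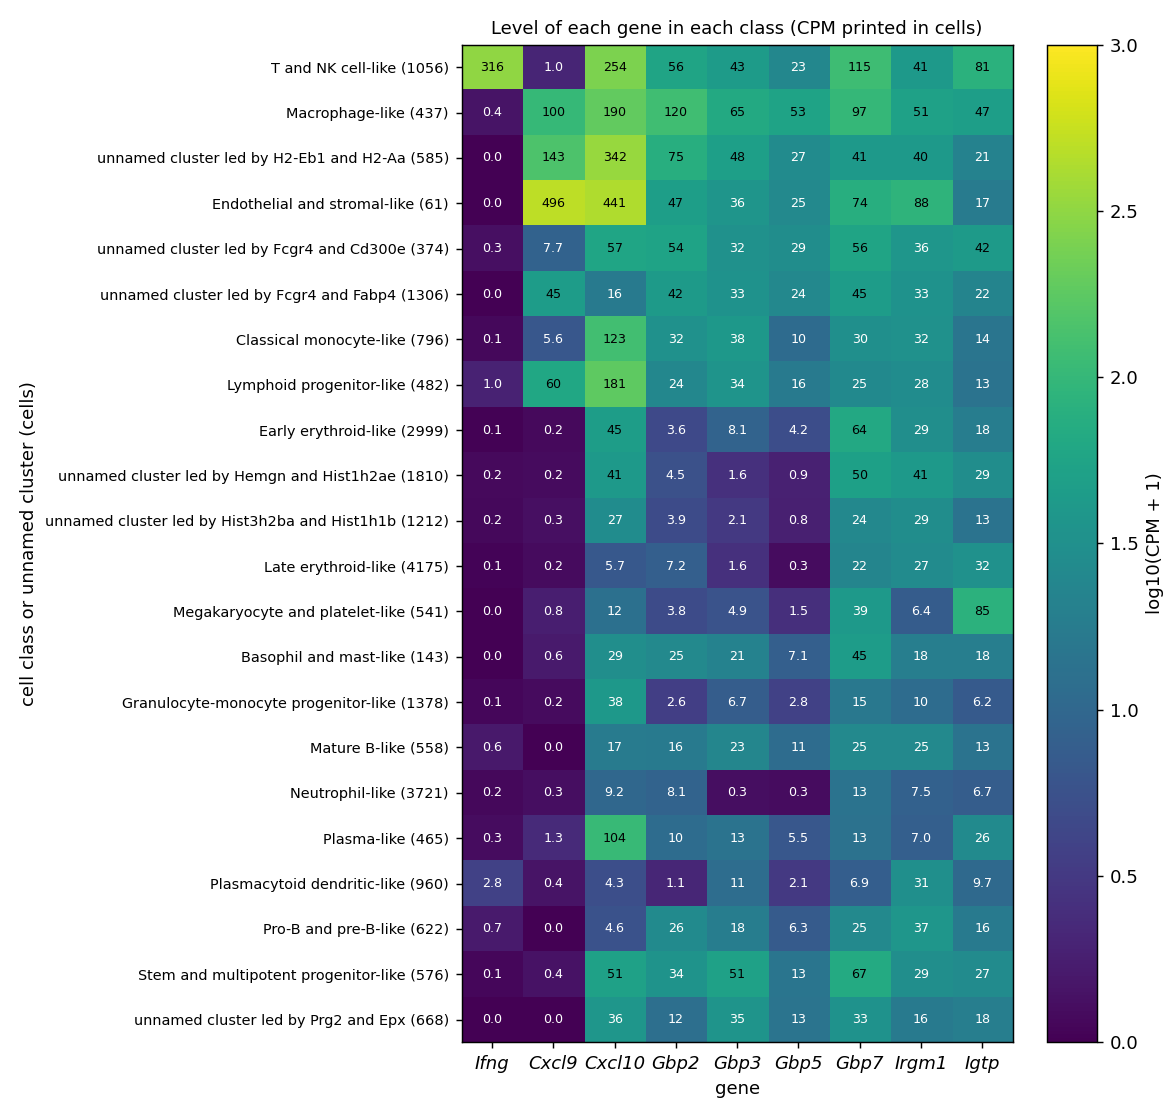
Level of each of the 9 genes (x axis) in each class or unnamed cluster (y axis, with cell numbers), as CPM printed in each field and as log10(CPM + 1) by colour. Ifng fills 1 row, Cxcl9 peaks in stromal, H2-Eb1-led and macrophage-like cells, and Igtp has a separate peak in megakaryocyte and platelet-like cells. Columns are to be read downward, not across genes.

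Cxcl9, of the chemokines the one tied most closely to interferon gamma, was nearly missing from the cells with Ifng. It reached 496 CPM (426 to 574) in 61 endothelial and stromal-like cells, 143 (131 to 155.5) in the cluster led by H2-Eb1 and H2-Aa, and 100.1 (87.6 to 114) in the macrophage-like class. Lymphoid progenitor-like cells had 59.9 CPM and the cluster led by Fcgr4 and Fabp4 had 44.8 CPM, whereas T and NK cell-like cells had 1.03, from 6 UMIs. Thinned to 2000 UMIs, 18 of 42 stromal-like cells had a Cxcl9 UMI (42.9%, 27.7 to 59.0%), against 7.38% of macrophage-like and 0.0260% of late erythroid-like cells. The stromal class was small and mixed, with marrow fibroblast genes (Col1a1, Lepr, Cxcl12) and endothelial genes (Cdh5, Kdr, Stab2) side by side. Of its cells, 62.3% were in run 6.

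Cxcl9 was also the gene held by the fewest cells. Only 267 cells had a UMI, the 100 highest cells held 86.6% of all 1493, and the 17 highest cells held as many as all the rest. Of these 17, 7 were in the lymphoid progenitor-like class with 258 UMIs, and 6 were in the H2-Eb1-led cluster with 366. The markers of the class were only partly found in the former. In the 21 lymphoid progenitor-like cells with a Cxcl9 UMI, the progenitor markers Dntt, Il7r, Notch1 and Cd34 were at 0 UMIs and Ly6d at 1. Flt3 (158 CPM), Irf8 (1183) and Tbc1d4 (654), the other 3 markers of the class, were present, against 173, 1103 and 281 over the whole class. Xcr1 and Clec9a, genes of the dendritic cells that present to Cd8 T cells, stood at 240.1 and 158 CPM there, against 27.4 and 38.6 over the whole class. Of the same dendritic marker list, Cst3 (18390 against 4403 CPM), Naaa (789 against 145) and Ccr7 (373 against 101) were higher too. So were Fscn1, H2-Oa, H2-DMb2 and Zbtb46. Cd209a (15.3 against 52.0 CPM) and Clec10a (17.9 against 27.0), also on that list, were not raised, nor was Flt3. These 21 cells were deeper (median 16776 UMIs) than the 461 without Cxcl9 (7800). No dendritic cluster was named by the marker rule, and these genes are named after their values were seen.

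In macrophage-like cells, Cxcl9 was 43.1, 38.5, 133 and 112 CPM in runs 3, 5, 6 and 7, the runs with at least 20 such cells. Macrophage-like cells carried the island macrophage markers Vcam1 (4422 CPM), Hmox1 (4507 CPM) and C1qa (4457 CPM). In the H2-Eb1-led cluster, the value was 181, 102, 345, 423, 14.6 and 506 CPM in runs 1, 2, 3, 4, 6 and 8. Run 6, with 405 of the 585 cells, was lowest by a wide margin. The pooled value of 142.9 CPM lay above run 2 and below runs 1, 3, 4 and 8. The cluster held the classical monocyte gene Ly6c2 in 70.3% of its cells and the macrophage gene C1qa in 18.8%. In its 47 Cxcl9-positive cells the level of Ly6c2 was 1248 CPM, against 1580 over the whole cluster, and that of C1qa 1811, against 721. The markers of both kinds were mixed there. Ms4a4c (624 against 429 CPM) and Ccr2 (724 against 675), monocyte genes, were not lower, and the macrophage genes Cd163, Timd4 and Itgad were at 0.

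Cxcl10, which type I interferon also induces, was broader. It was 441 CPM (375 to 515) in stromal-like cells, 342 (323 to 361) in the H2-Eb1-led cluster, 254 (241 to 267) in T and NK cell-like cells and 190.2 (173 to 209) in macrophage-like cells. The macrophage-like and lymphoid progenitor-like (181 CPM) intervals overlapped, and classical monocyte-like cells followed with 123. Unlike Cxcl9, it reached 45.2 CPM in early erythroid-like cells. After thinning, 6.97% of early and 0.962% of late erythroid-like cells had a UMI of it. Runs differed widely. Cxcl10 in macrophage-like cells was 32.4, 2.02, 260.1 and 254 CPM in runs 3, 5, 6 and 7. In classical monocyte-like cells the runs lay between 44.8 and 638 CPM, and in T and NK cell-like cells the 8 runs lay between 88.4 and 496 CPM. In the 86 macrophage-like cells of run 5, where Cxcl10 was lowest, Gbp2 was 111 CPM and Gbp7 119.

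**Figure D3:**
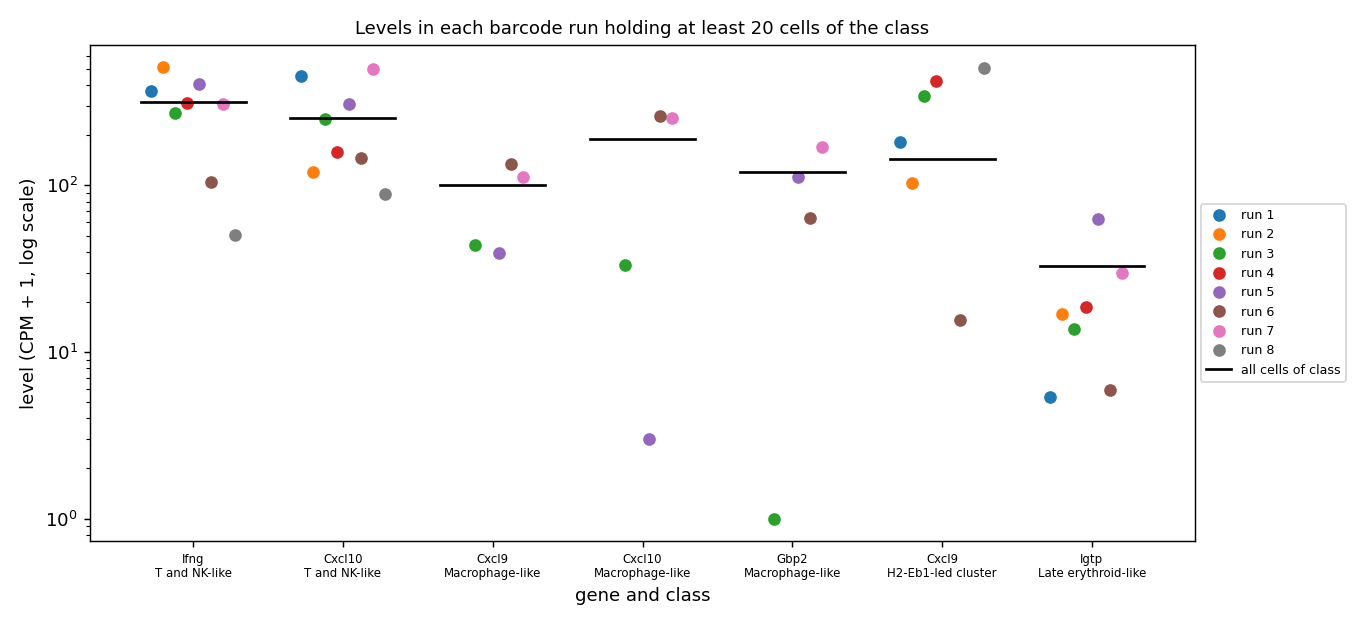
Levels of 5 members in chosen classes (x axis) as CPM + 1 on a log scale (y axis). Each point is 1 run with at least 20 cells of the class, coloured by run, and the line is the level over all cells of the class. Ifng is low in runs 6 and 8, Cxcl9 in the H2-Eb1-led cluster is low in run 6 alone, and Igtp in late erythroid-like cells is highest in run 5.

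In the pooled cells, Gbp2, Gbp3 and Gbp5 were highest in macrophage-like cells and Gbp7 in T and NK cell-like cells. None of these differences was called in the comparison described below. Gbp2, which coats vacuoles holding microbes, was 120.0 CPM (106 to 135) in macrophage-like cells, 74.7 in the H2-Eb1-led cluster and 56.2 in T and NK cell-like cells. Gbp5, known for promoting assembly of the inflammasome, was 53.3 CPM (44.3 to 63.6) in macrophage-like cells and 23.2 to 28.8 in the 5 next classes. Gbp3 was 65.0 CPM (55.0 to 76.3) in macrophage-like cells, and its interval overlapped that of stem and multipotent progenitor-like cells (50.7). Gbp7 was 115 CPM (107 to 124) in T and NK cell-like cells and 97.5 (85.2 to 111) in macrophage-like cells, intervals that overlapped. It was also found in stem and multipotent progenitor-like (66.6 CPM) and early erythroid-like cells (64.2). In neutrophil-like cells, Gbp3 and Gbp5 were both at 0.3 CPM or below.

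Across runs the levels in macrophage-like cells were unequal. Gbp2 in macrophage-like cells was 0, 111, 62.8 and 169 CPM and Gbp5 was 0, 32.4, 17.9 and 90.1 in runs 3, 5, 6 and 7. Run 3, with no UMI of either, held only 27 such cells. Leaving out the cells with repeated barcodes lowered Gbp2 there from 120.0 to 109 CPM. In T and NK cell-like cells, Gbp2 lay between 10.6 (run 8) and 97.6 CPM (run 2), and Gbp7 between 51.3 and 150.1, with run 8 lowest for both. Run 8 was also lowest for Ifng, Cxcl10, Gbp5 and Igtp in these cells.

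The immunity-related GTPases Irgm1 and Igtp had their highest levels elsewhere. Irgm1, which guards host membranes and is needed for normal blood stem cells under interferon, was 88.2 CPM (60.3 to 124.5) in stromal-like cells. Macrophage-like cells had 50.7 and T and NK cell-like cells 41.1. It was also 41.4 in the erythroid cluster led by Hemgn. Each interval in this order overlapped the next, the first by a narrow margin. Igtp was 84.5 CPM (75.6 to 94.1) in megakaryocyte and platelet-like cells and 81.1 (73.9 to 88.75) in T and NK cell-like cells. Macrophage-like cells had 47.2 and late erythroid-like cells 31.8, and the latter held 23.4% of all Igtp UMIs. By share of cells the order differed: thinned to 2000 UMIs, 5.575% of megakaryocyte and platelet-like and 14.3% of T and NK cell-like cells had Igtp. In megakaryocyte and platelet-like cells, run 6 gave 87.3 CPM from 351 of the 541 cells, run 7 gave 78.2, and runs 1 to 4 gave 0 to 38.3. Irgm2, which shares exons with Igtp, was 9.11 CPM in T and NK cell-like cells and highest in stromal-like cells (46.8).

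Over the 16 named classes, the profiles of Gbp2, Gbp3 and Gbp5 were most alike. Pearson's r of log2(CPM + 10) was 0.92 for Gbp2 with Gbp5, 0.91 for Gbp3 with Gbp5 and 0.07 for Irgm1 with Igtp. Ifng had an r of -0.11 with Cxcl9 and of 0.51 with Igtp. These describe 16 points that share libraries and depth. Of all genes with at least 20 CPM in a class, those nearest to Ifng were Klra8, Gzmk and Cd160 (r of at least 0.998), receptor and granzyme genes of killer cells. Outside T and NK cell-like cells, Ifng was at 2.79 CPM or below in every named class. Any gene confined to that class thus comes near 1, and the order among such genes says little. Nearest to Cxcl9 was Tlr3 (0.99), a sensor of double-stranded RNA. Both were highest in the 61 stromal-like cells, Tlr3 with 30.3 CPM, and the unnamed H2-Eb1-led cluster is not among the 16 classes. The nearest gene was Mdfic for Gbp5 (0.90), Parp9 for Irgm1 (0.90), Pigf for Gbp3 (0.87) and Rtp4 for Gbp2 (0.85). It was Pbx3 for Gbp7 (0.83), Raph1 for Cxcl10 (0.81) and Ctla2b for Igtp (0.81).

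To set the cells with Ifng against those with its targets, macrophage-like cells were compared with T and NK cell-like cells. A gene was called when its log2 ratio, after adding 10 CPM and subtracting the median of all genes with 20 CPM in either class, was at least 2-fold with 1 sign in all 4 runs with 20 cells of both. By this rule 19.8% of 6735 genes were higher and 12.9% lower in macrophage-like cells. Ifng was lower, by 4.83 on the log2 scale. Of the 8 targets, 1 was higher and 0 were lower, no more than the background share. The median over the targets was 0.50, against 0 over all genes by construction.

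Cxcl9 was the target called, with a log2 difference of 3.45 (2.44 to 3.69 between runs). Gbp2 at 1.10 and Gbp5 at 1.06 passed 2-fold in the pooled cells, but run 3 went the other way (-2.03 and -1.55). The pooled Gbp2 value lay above every run (at most 1.057). Without run 3 both were called, and the count was 3 of 8. Fewer runs then had to share a sign, so this count cannot be set against the 19.8% of all genes above. Irgm1 differed by 0.38 and was above 0 in 4 of 4 runs, and Igtp by -0.54 and was above 0 in 0 of 4. Gbp3 (0.62), Gbp7 (-0.09) and Cxcl10 (-0.27) had runs on both sides of 0. For 5 of the 8 targets, the direction thus changed from run to run.

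The second comparison set 2 clusters with Fcgr4 and Cd300e, genes of patrolling monocytes, among their leading genes against classical monocyte-like cells. Fcgr4 encodes the Fc receptor that binds IgG2. Neither cluster took a name. The Fcgr4 and Cd300e cluster (374 cells) was nearest to patrolling monocytes by markers, but another class had as many among its 10 leading genes. The larger Fcgr4 and Fabp4 cluster (1306 cells) was nearest to macrophages by markers. The macrophage gene C1qb was among the leading genes of both, so the 2 clusters do not stand for patrolling monocytes alone. Over 6 runs, 7.57% of 6022 genes were higher and 4.53% lower. Of the 7 targets with 20 CPM on either side, 0 were higher and 1 was lower, Cxcl10, with 43.5 against 123 CPM and a log2 difference of -1.25 (-4.98 to -0.39). Without run 5 it was -0.88 and no longer called. Igtp stood at 35.45 against 13.8 CPM, Gbp5 at 27.4 against 10.1 and Gbp7 at 52.4 against 30.01, each with runs on both sides of 0. Depth differed: the Fcgr4 and Fabp4 cluster had a median of 806 UMIs, the Fcgr4 and Cd300e cluster 6548 and classical monocyte-like cells 16628. The part of depth in the result was not tested.

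**Figure D4:**
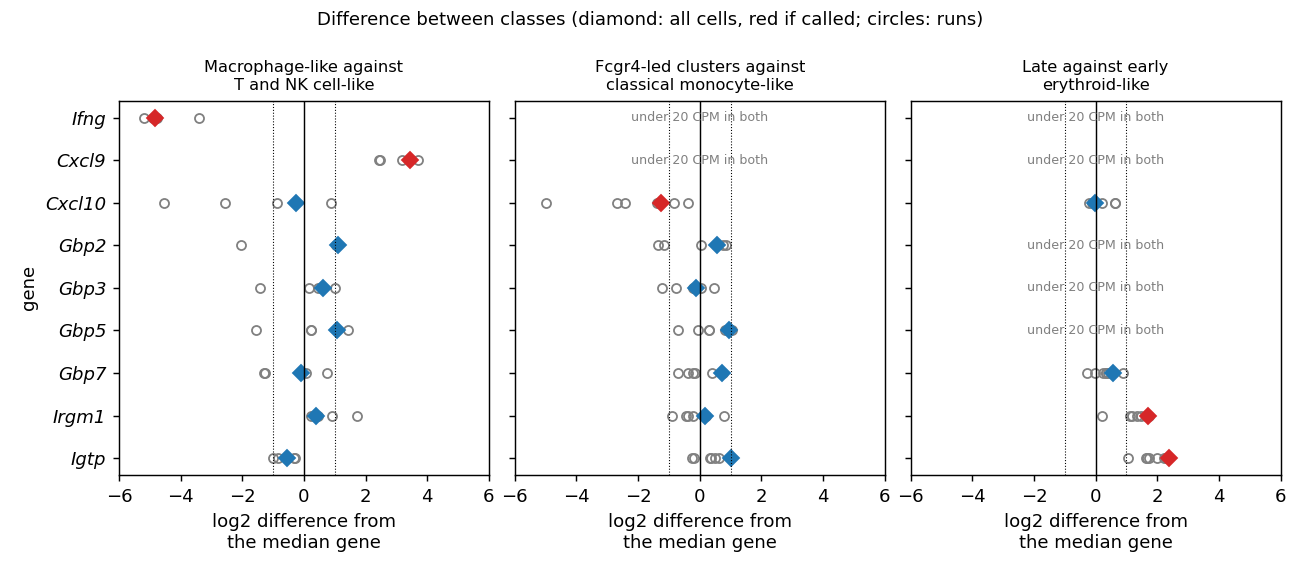
Log2 difference from the median gene (x axis) for each of the 9 genes (y axis) in 3 comparisons between classes. Diamonds are the pooled cells, red where called, circles are single runs, and dotted lines mark 2-fold. Ifng and Cxcl9 stand apart in the first panel, and Irgm1 and Igtp in the third, where the centring adds 1.78 to every gene.

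In the erythroid line, late cells were compared with early ones over 7 runs. Globin filled the late cells and shifted the median gene by -1.78, so differences are relative to that shift. By the rule, 13% of 4800 genes were higher and 14.1% lower in late cells. Only 4 of the 8 targets had 20 CPM on either side. Of these, Igtp (2.38, runs 1.05 to 2.29) and Irgm1 (1.69, runs 0.22 to 1.72) were higher. The pooled Igtp value lay above that of every run, and the part of unequal run make-up in it was not tested. Gbp7 (0.58) and Cxcl10 (-0.03) were not called. On plain totals, with no centring, Irgm1 was 27.1 CPM in late and 29.5 in early cells (log2 -0.09) and Igtp 31.8 and 17.7 (0.59). On that scale no target was higher, and Cxcl10 (-1.82) and Gbp7 (-1.20) were lower.

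Igtp in late erythroid-like cells was 4.35, 15.9, 12.7, 17.6, 62.1, 4.88 and 28.6 CPM in runs 1 to 7. Run 5, with 1300 of the 4175 cells, was the highest, and without it Igtp fell below 20 CPM in both classes and was not measured. Irgm1 was 3.11, 12.4, 28.6, 33.9, 36.1, 10.3 and 20.97 CPM in the same runs, so runs 1 and 6 were low for both genes. The cells with a UMI were few: after thinning, 4.81% of late and 3.07% of early cells had Igtp, and 4.03% and 5.61% had Irgm1.

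By cluster, the 2 GTPases were not highest where the globin share was largest. Maturity itself was not measured. With globin left out of the totals, Igtp was 10.6 to 27.1 CPM in the 4 early clusters, 51.0 in the Hemgn-led cluster and 27.2 in the Hist3h2ba-led one. It was 143 in the late cluster led by Apol11a, 184 in that led by Xpo7, 45.1 in that led by Tmcc2 and 53.7 in that led by Bpgm, where 90.5% of UMIs were globin. Irgm1 was 170 in the Apol11a-led, 128 in the Xpo7-led and 22.9 in the Bpgm-led cluster. Unlike Igtp, its value in the Bpgm-led cluster lay within the range of the 4 early clusters (22.4 to 37.8). The highest values of all were in a late cluster of 169 shallow cells led by Slfn14 (median 1560 UMIs, 29.7% globin). Of all its UMIs, globin included, Igtp made up 301 CPM (246 to 363, runs 69.7 to 491) and Irgm1 135 (99.5 to 179).

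The Slfn14-led cluster also carried the type I interferon genes Isg15, a ubiquitin-like modifier, and Rsad2, the antiviral enzyme viperin. Of all UMIs, Rsad2 was 5655 CPM and Isg15 3016 in the Slfn14-led cluster, against 6.01 to 94.7 and 50.95 to 214 in the 4 early clusters. Neither gene was confined to it: over all late erythroid-like cells Rsad2 was 819 CPM and Isg15 1244. In the other late clusters globin took 62.8 to 90.5% of UMIs, against 29.7% in the Slfn14-led one, which lowers their levels on this scale. In that Slfn14-led cluster Gbp7 had 6 UMIs, Gbp2 6, Gbp3 1, Cxcl10 2, and Cxcl9 and Gbp5 0. Gbp7 was not low in all late clusters. With globin left out it was 153 CPM in the Apol11a-led, 87.1 in the Xpo7-led, 58.3 in the Bpgm-led and 28.8 in the Tmcc2-led cluster, and 49.1 to 82.7 in the 4 early clusters.

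**Figure D5:**
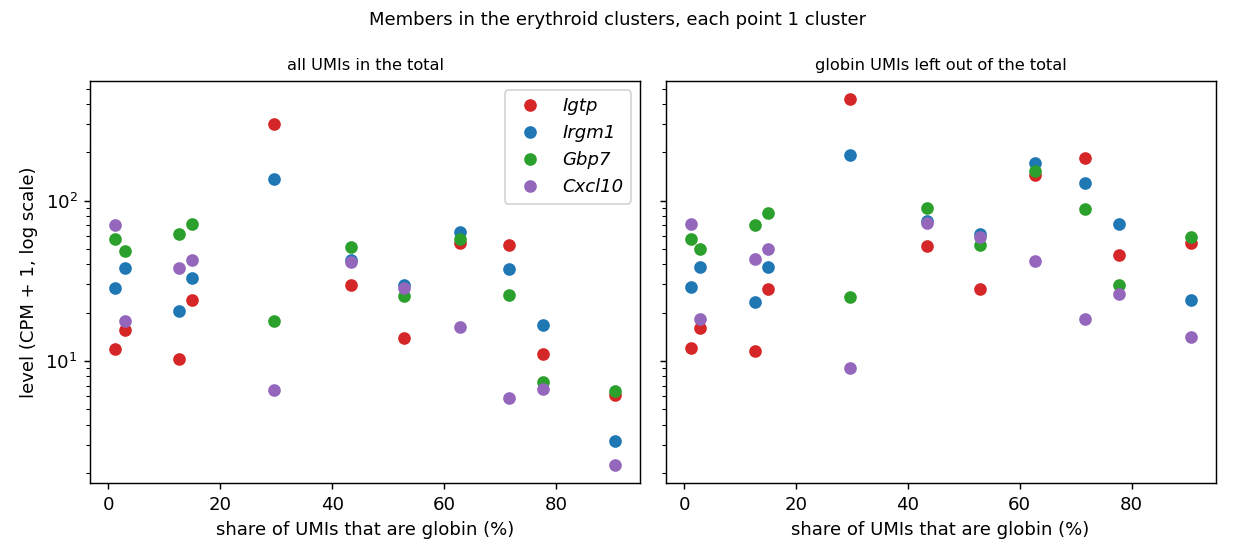
Levels of Igtp, Irgm1, Gbp7 and Cxcl10 as CPM + 1 on a log scale (y axis) against the globin share of UMIs (x axis) in the erythroid clusters, each point 1 cluster and 1 gene. The left panel uses all UMIs and the right panel leaves globins out of the total. The points at 29.7% globin are the Slfn14-led cluster, and in the left panel Cxcl10 is highest in the cluster with the least globin.

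The other genes of the pathway were described from lists, with the same comparison of macrophage-like against T and NK cell-like cells. By its rule 19.8% of all genes were higher and 12.9% lower, to be set beside each count. Of the other guanylate-binding proteins, 4 had 20 CPM on either side. Gbp8 was higher (193 against 46.7 CPM), Gbp4 (17.3 against 88.8) and Gbp6 (3.47 against 30.9) were lower, and the list's median was -1.03. Of 6 other immunity-related GTPases measured, 4 were higher and 0 lower (median 1.27): Iigp1, which attacks vacuole membranes, with 145 against 33.7 CPM, Gm4951, Irgm2 and F830016B08Rik.

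Of 10 receptor and signalling genes, 2 were higher and 2 lower (median -0.83), near the 19.8% and 12.9% of all genes. Ifngr1 was highest in T and NK cell-like cells (346 CPM, against 148 in macrophage-like cells). Ifngr2, the chain that limits signalling in T cells, was 6.53 CPM in T and NK cell-like and 77.6 in macrophage-like cells and was called higher. Ptpn6, a phosphatase, was higher (359 against 73.4 CPM), and Jak1 (186 against 443) and the feedback inhibitor Socs1 (6.93 against 103) were lower. Ifngr1, Ifngr2 and Socs1 are named here after their values were seen.

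Of 14 other known targets, 2 were higher, Fcgr1 and Irf8, and 4 were lower, Psmb8, Psmb9, Tap2 and Nlrc5, genes of class I antigen presentation (median -0.70). Of 10 measured genes that drive Ifng production, 9 were lower in macrophage-like cells and 1, Zeb2, was higher (median -3.18). Among all genes 12.9% were lower and 19.8% higher. Apart from Il2rg and Zeb2, these genes reached 20 CPM only in T and NK cell-like cells, so no call but lower was possible. Examples are Tbx21 (0 against 33.0 CPM) and Il18r1 (0 against 123). Il2rb, the receptor chain for interleukins 2 and 15, stood at 512 CPM in T and NK cell-like cells and 0.433 in macrophage-like cells. Il2rb and Eomes were also on the NK marker list used in naming classes, so their levels there are no separate result. Of 8 cytokines known to act upstream of Ifng, 6 were highest outside the T and NK cell-like class, and Il21 (13.2 CPM) and Il2 (7.73 CPM) were highest in it. Il18 was 235 CPM in macrophage-like cells against 1.89 in T and NK cell-like cells, Il12b was highest in lymphoid progenitor-like cells (41.1 CPM) and Il12a in pro-B and pre-B-like cells (257.5 CPM). Cxcr3, the receptor for Cxcl9 and Cxcl10, was highest in T and NK cell-like cells (136 CPM, against 50.7 in plasmacytoid dendritic-like cells).

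Type I interferon genes were followed for comparison. In late against early erythroid-like cells, 7 of 7 measured were higher relative to the median gene (median 3.55), where 13% of all genes were. On plain totals Rsad2 (819 against 53.0 CPM) and Isg15 (1244 against 158) were far apart, Irf7 stood at 57.5 against 32.9 CPM, and Cmpk2 was lower (38.3 against 45.5). Of the other targets of interferon gamma, 0 of 6 were higher and 0 lower there by the centred rule (median 0.10). On plain totals all 6 had less in late cells, such as Psme1 (22.3 against 144 CPM) and Tap1 (3.55 against 41.8). In macrophage-like against T and NK cell-like cells, 3 of 12 type I genes were higher, Rsad2, Irf7 and Ifi44, and 0 lower (median 1.025), near the 19.8% of all genes that were higher. In the Fcgr4-led clusters against classical monocyte-like cells, 4 of 11 were higher, Ifit1, Ifit3, Rsad2 and Oasl1, against 7.57% of all genes. Of the other interferon gamma targets, Cd274 (95.9 against 4.64 CPM) and Serpina3g (87.8 against 7.25) were higher there and Irf8 was lower, of 13. The difference between the lists was not tested.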

How the data were processed

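Single-cell RNA of erythroblastic island cells was measured in 8 libraries. What the authors deposited is 1 matrix of UMI counts, genes by cells, not normalized. Per the submitters' processing notes, Cell Ranger 5.0.0, Seurat 3.1.5 and mm10 were used, and cell filters are not given in the sources read. The columns name no library, so all cells were 1 pooled sample, no group was formed and no test was made.

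A filter of 200 genes per cell and 20% mitochondrial UMIs took out no cell. Scrublet called 17 doublets, too few to be relied on, and these were left out. The remaining 24925 cells were clustered in scanpy 1.11.5 (2000 variable genes without those listed, 30 components, 15 neighbours, Leiden resolution 1, leidenalg 0.10.2, Python 3.11.15). A cluster took the class with most markers among its 50 leading genes, given 3 markers at 50 CPM and 1 among the top 10, unless another class had as many there. Names end in -like. Sub-clusters of T and NK cell-like cells were made likewise with 1000 variable genes and 20 components, and are called by leading genes. Both clusters of that class took the T name. Within it, 1 sub-cluster took the NK name, and NK cells were also gated by UMIs.

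Where a patrolling monocyte-like class had been intended, the 2 clusters with Fcgr4 and Cd300e among their 10 leading genes were used. The genes named are the 9 members, up to 4 of each list by highest level, the called genes of a list and the 3 genes nearest each member. Members and lists were chosen with earlier results of these data known. The calculation was tested on simulated data.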

Additional observations from a re-analysis of the deposited data

How the results depend on the processing

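No paired analysis was possible because no cell could be tied to a library or replicate. The alternatives were cluster resolutions 0.5 and 2, stricter cell filters, clustering with all variable genes, the 6% highest doublet scores left out, each run left out, plain totals, 1 CPM added, no minimum level and UMI gates. Repeated barcodes left out and globins left out of the totals were added after seeing the data. The share of Ifng in T and NK cell-like cells lay between 96.98 and 97.76% with a run left out. The count of targets higher in macrophage-like cells lay between 1 and 3 with a run left out. In late erythroid-like cells it lay between 1 and 2 with a run left out, was 1 at resolution 2, and was 0 on plain totals and 0 with no minimum level. In the Fcgr4-led clusters it was 1 at resolution 2 (Igtp) in place of 0. Irgm1 (-0.09) and Gbp7 (-1.20) in late against early erythroid-like cells changed sign on plain totals, because the centring adds 1.78. With globins left out of the totals, Gbp2 reached 20 CPM in late erythroid-like cells and was called higher (2.41). Of the values of single genes, 472 kept their direction and call, 6 gained a call, 6 lost it and 2 changed sign. Depth limits the low genes: Gbp5 had 1250 UMIs over all cells.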

Other observations

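Cells with Cxcl9 were set beside cells of the same class without it. In the H2-Eb1-led cluster, the 47 cells with a Cxcl9 UMI had 270 CPM of Gbp2 and 852 CPM of Cxcl10, against 47.4 and 270.4 in the 538 cells without one. In macrophage-like cells, the 52 Cxcl9-positive cells had 170 CPM of Gbp2, 96.3 of Gbp3 and 83.8 of Irgm1, against 107, 56.8 and 42.1 in the 385 others. All 7 other targets were higher in the Cxcl9-positive cells of both sets. In stromal-like cells, the class with the highest Cxcl9 level, this was so for 5 of 7, while Irgm1 (85.6 against 92.8 CPM) and Igtp (12.8 against 23.2) were lower in the 30 positive cells. Positive cells were deeper, with a median of 10080 against 4812 UMIs in the cluster and 5669 against 2325 in macrophage-like cells, and levels were taken per UMI. Runs differed too. The largest run of the H2-Eb1-led cluster, the lowest for Cxcl9, held 69.2% of its cells. No run held more than 19.15% of the positive cells there, so these came mostly from other runs. In macrophage-like cells the largest shares of a run were 33.9% of all cells and 48.1% of the positive ones. The part of depth and of runs was not tested, and the share of all genes higher in positive cells was not taken.

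In T and NK cell-like cells, the 430 cells with an Ifng UMI had 134 CPM of Gbp7 and 321 of Cxcl10, against 95.8 and 185 in the 626 without one. Gbp5 stood at 27.1 against 19.15 CPM. Gbp2 (62.7 against 49.45), Gbp3 (48.15 against 38.7), Irgm1 (46.1 against 35.9) and Igtp (85.5 against 76.6) differed less. Cxcl9 was at 4 UMIs in cells with Ifng and 2 in cells without, so it was near 0 in both. Cells with Ifng were deeper (median 5886.5 against 3620.5 UMIs). The part of depth, runs and sub-clusters was not tested.

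Ifnb1, the gene of interferon beta, was highest in the H2-Eb1-led cluster (55.7 CPM), macrophage-like cells (26.4) and lymphoid progenitor-like cells (23.9). Stromal-like cells, which had the most Cxcl9, had 2.755 CPM of Ifnb1, and T and NK cell-like cells had 0 UMIs of it. Ackr1, a decoy receptor that binds chemokines, was 89.5 CPM in the Hemgn-led erythroid cluster and 85.4 in stromal-like cells, and had 0 UMIs in T and NK cell-like cells.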
